A study of Mus musculus with 18 samples.

Results

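Genes of the choroid plexus were examined in the lateral septum (LS) of 18 adult female mice, each measured on 1 Affymetrix Mouse Gene 1.0 ST array. The gene set lists 32 genes known from choroid plexus epithelium, and its rule uses gene names and no measured values, although the list was drawn up with earlier results of these data known. A gene was read from the array target (probeset) that names that gene alone, taking the brightest where there were several. By this rule 30 of the 32 genes were measured, out of 19938 genes on the array, and each of the 30 had 1 such target. Enpp2 and Mfrp were not analysed here. Of the 30, a core of 12 genes served to define the epithelium, namely Ttr, Folr1, Kl, Otx2, Kcnj13, Kcne2, Clic6, Slc4a5, Sostdc1, F5, Tmem72 and Cldn2. Several of the other genes, among them Aqp1, Sulf1, Ace and Trpv4, are also known from neurons, glia, vessels or meninges.

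All mice were outbred hsd:ICR females of about 70 days, with 6 arrays in each of 3 groups. Maternal mice were lactating, with litters set to 11 pups, and were dissected on postpartum day 7. Pups removed mice had given birth but lost their litter on postpartum day 2, were dissected on the same day as maternal mice, and were all diestrous. Virgin mice were of matched age and were also taken in diestrus. The LS was cut out by micropunch, and 8 animals a group had been collected. Values are log2 signal, on which a difference of 1 is a doubling.

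The choroid plexus is a folded sheet of epithelium that hangs in the brain ventricles and secretes cerebrospinal fluid (CSF). Its cells pump sodium, bicarbonate and chloride into the ventricle, with water following through aquaporin channels, and they release carrier proteins such as transthyretin. The LS forms the medial wall of the lateral ventricle, in which part of the plexus lies. Within the brain, Ttr, Kl, Kcnj13 and Folr1 are known mainly from this epithelium.

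Promoters of 4 of the defining genes are shown as examples. Each runs from 250 bases before to 50 bases after the start of the gene, 5' to 3' on the strand of the gene, from RefSeq on GRCm38.p6. The promoter of Kcnj13 is at chr1:87394680-87394979 on the minus strand, that of Kl at chr5:150952357-150952656 on the plus strand, that of F5 at chr1:164151585-164151884 on the plus strand and that of Tmem72 at chr6:116716709-116717008 on the minus strand. Capitals mark the letters TAATTG, a core that Msx homeodomain factors bind.
Kcnj13: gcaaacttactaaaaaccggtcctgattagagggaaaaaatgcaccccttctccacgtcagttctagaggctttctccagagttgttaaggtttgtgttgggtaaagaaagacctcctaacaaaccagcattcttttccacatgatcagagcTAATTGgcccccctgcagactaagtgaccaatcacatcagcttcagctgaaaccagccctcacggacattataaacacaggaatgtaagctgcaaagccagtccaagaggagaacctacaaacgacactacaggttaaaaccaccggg
Kl: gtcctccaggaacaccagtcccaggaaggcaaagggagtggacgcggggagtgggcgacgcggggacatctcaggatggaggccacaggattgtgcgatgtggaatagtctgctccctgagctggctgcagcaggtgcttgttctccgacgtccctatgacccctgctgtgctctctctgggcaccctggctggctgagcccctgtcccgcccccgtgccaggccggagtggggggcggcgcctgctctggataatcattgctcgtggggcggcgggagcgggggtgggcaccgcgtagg
F5: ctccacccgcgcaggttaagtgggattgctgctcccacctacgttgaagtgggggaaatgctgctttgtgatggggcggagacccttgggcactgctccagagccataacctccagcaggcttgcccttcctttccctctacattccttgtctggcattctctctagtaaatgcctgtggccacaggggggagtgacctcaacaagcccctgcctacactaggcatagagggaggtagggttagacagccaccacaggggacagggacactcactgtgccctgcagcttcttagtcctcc
Tmem72: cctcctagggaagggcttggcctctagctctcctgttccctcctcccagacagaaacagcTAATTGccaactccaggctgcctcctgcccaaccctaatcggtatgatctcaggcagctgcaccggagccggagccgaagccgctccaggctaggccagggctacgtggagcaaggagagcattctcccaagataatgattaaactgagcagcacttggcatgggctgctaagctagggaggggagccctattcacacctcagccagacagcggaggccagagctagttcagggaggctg
The match lies 98 bases before the start in Kcnj13 and 190 bases before it in Tmem72, and neither TAATTG nor TAATCC, a core bound by Otx factors, is present in the Kl and F5 windows on either strand. Both cores begin with TAAT and were searched on both strands. Among 31 promoters of 24 of the listed genes, TAATTG was found in 5 (16.1%), which belong to Cab39l, Kcnj13, Otx2 and Tmem72, against 8.0% of all 32851 promoters. TAATCC was found in 5 of 31 (16.1%), those of Abca4, Ace, Car14, Otx2 and Vat1l, against 7.06% of all. These are descriptions of letters in a window. The median GC content of these promoters was 58.3%, and that of all promoters was 52.7%.

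Ttr, which encodes the carrier of thyroxine and of retinol-binding protein in CSF, varied more between arrays than any other gene measured. In virgin mice, replicates 1 to 6 gave log2 signals of 12.87, 13.83, 13.55, 13.40, 13.30 and 9.22. In maternal mice they gave 13.58, 8.38, 13.03, 11.13, 9.14 and 12.11. In pups removed mice they gave 13.60, 13.76, 8.34, 8.58, 13.50 and 13.49. Each group thus holds arrays with high and arrays with low Ttr, and the ranges of the 3 groups overlap nearly in full. The SD over 18 arrays was 2.15, the largest of 21789 targets that name 1 gene, whose median SD was 0.0952. The brightest array had 44.9 times the Ttr signal of the dimmest. In tissue homogenates, fewer cells of a type and less RNA per cell cannot be told apart, and this holds for every level given here.

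The widest gap between neighbouring Ttr levels was 1.91, against 0.98 for the next widest. It left 5 arrays at 8.34 to 9.22 and 13 arrays at 11.13 to 13.83. The 5 low arrays were virgin replicate 6, maternal replicates 2 and 5, and pups removed replicates 3 and 4. Of the 29 other plexus genes measured, 5 (Kl, Kcnj13, Sostdc1, Calml4 and Lbp) were lower in each of these 5 arrays than in any of the 13, a share of 17.2%, where 18 of all 21789 single-gene targets (0.0826%) were. Maternal replicates 4 and 6 stood at the lower end of the 13, with Ttr at 11.13 and 12.11.

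Most genes for ion channels and transporters were low in most of the 5 arrays with low Ttr. Kcnj13, which encodes the inward rectifier potassium channel Kir7.1 of the ventricular face of the epithelium, ran from 6.94 to 11.01 in virgin mice with a median of 9.84, from 6.77 to 10.22 in maternal mice with a median of 7.85, and from 6.72 to 10.82 in pups removed mice with a median of 10.33. Among single-gene targets its SD of 1.65 was second only to that of Ttr, and its highest array had 19.6 times the signal of its lowest. Slc4a5, a sodium bicarbonate cotransporter, ran from 7.30 to 8.57 in virgin mice, 7.12 to 8.11 in maternal mice and 7.14 to 8.71 in pups removed mice, with medians of 8.03, 7.34 and 8.23. In both genes the lowest virgin array was replicate 6 and the 2 lowest pups removed arrays were replicates 3 and 4, as for Ttr. Among maternal arrays Slc4a5 did not keep the order of Ttr, with 7.35 in replicate 5 above 7.33 in replicate 4 and 7.21 in replicate 6.

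The other channel and transport genes had narrower ranges. Aqp1, the water channel, spanned 7.29 to 8.13 over the 18 arrays, an SD of 0.23. Slc13a4, a sulfate transporter, spanned 7.64 to 8.80 and Clic6, a chloride intracellular channel protein, 8.30 to 9.40. Kcne2, a potassium channel beta subunit, Car14, a membrane carbonic anhydrase, and Trpv4, an osmosensitive cation channel, had ranges of 0.93, 0.90 and 0.76. Slc16a8, a lactate transporter known mainly from retinal pigment epithelium, had a range of 0.34 and an SD of 0.113.

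Among receptors and secreted proteins, Kl, or klotho, a coreceptor for fibroblast growth factor 23, had the third widest spread of all single-gene targets. It ran from 7.32 to 10.03 in virgin mice, 7.46 to 9.42 in maternal mice and 7.31 to 9.84 in pups removed mice, with medians of 9.07, 7.99 and 9.31. Sostdc1, a secreted antagonist of BMP and Wnt signals, had the fourth widest spread, with 8.08 to 10.54, 8.43 to 9.53 and 8.11 to 10.37 and medians of 9.51, 8.72 and 9.75. The 4 widest spreads of all single-gene targets were therefore those of 4 plexus genes.

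F5, coagulation factor V, ran from 6.23 to 8.07 in virgin mice, 6.21 to 7.41 in maternal mice and 6.20 to 8.10 in pups removed mice, with medians of 7.32, 6.45 and 7.57. Folr1, the folate receptor that carries folate into CSF, ran from 7.90 to 9.25, 7.83 to 8.86 and 7.53 to 9.34, with medians of 8.64, 7.92 and 8.94. In F5 and Folr1 a single maternal array, replicate 1, stood with the high arrays of the other groups. Lbp, which binds bacterial lipopolysaccharide, Ace, the angiotensin-converting enzyme, and Ecrg4, a precursor of secreted peptides, had ranges of 1.90, 1.84 and 1.70. Wfdc2, a secreted protein of many epithelia, had a range of 0.38.

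**Figure D1:**
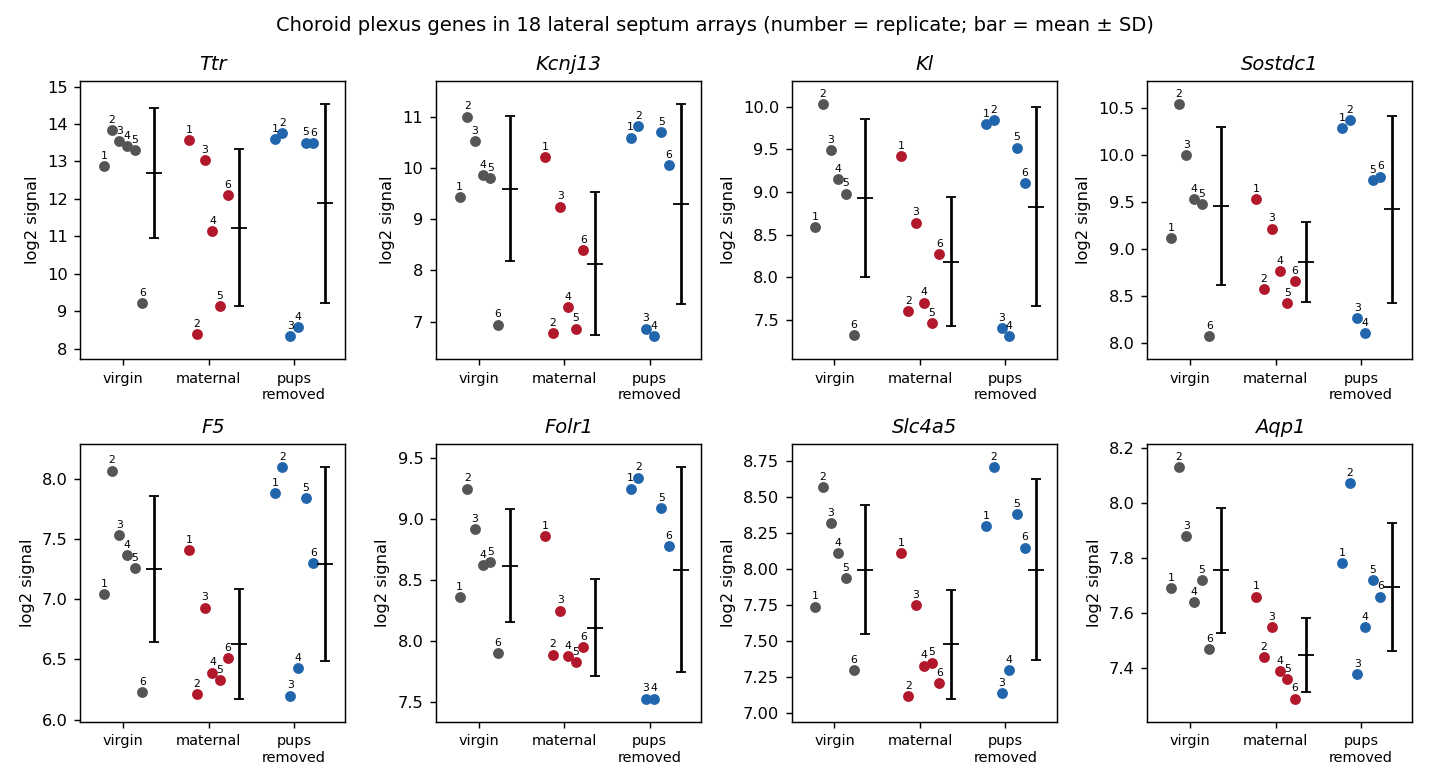
Log2 signal of 8 plexus genes in each array, with 1 point per mouse numbered by replicate, the 3 groups on the horizontal axis and the bar giving the group mean ± SD (n = 6). Virgin replicate 6 and pups removed replicates 3 and 4 lie at the bottom of their groups for Ttr, Kcnj13, Kl and Sostdc1, while the maternal points spread between low and high levels.

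The remaining genes had ranges of 0.32 to 1.76. The homeobox factors Otx2, which plexus epithelium needs for its development, and Msx1 had ranges of 0.92 and 0.60. Cldn2, the claudin of leaky epithelial tight junctions, had a range of 1.62. Col8a1, a short chain collagen, spanned 1.33 and Sulf1, a sulfatase of heparan sulfate, 0.94. Calml4, a calmodulin-like protein, spanned 1.76, Tmem72, a transmembrane protein, 1.44 and Abca4, a transporter of retinoids, 1.07. Steap1, of a metalloreductase family, spanned 0.96, Cab39l, a scaffold protein, 0.91 and Rdh5, a retinol dehydrogenase, 0.85. Vat1l, bright in every array at 11.07 to 11.39, had a range of 0.32.

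Of the 30 genes, 27 had an SD above 0.189, the level that 95% of single-gene targets stay below. The exceptions were Wfdc2 at 0.106, Slc16a8 and, at the lowest SD, Vat1l at 0.0844, and none of the 3 is among the 12 defining genes. Setting each gene against its own mean over 18 arrays shows how the genes went together. In pups removed replicate 4 and maternal replicate 5, 0 of 30 genes were above their mean, and in virgin replicate 6, maternal replicate 2 and pups removed replicate 3, 2 of 30 were. In maternal replicates 4 and 6, which lay above the widest gap in Ttr, 3 of 30 were above their mean. In virgin replicate 3 and pups removed replicates 1 and 2, 29 of 30 were above it. Averaged over the 12 defining genes, the deviation reached 1.01 in virgin replicate 2 and -1.04 in pups removed replicate 4.

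**Figure D2:**
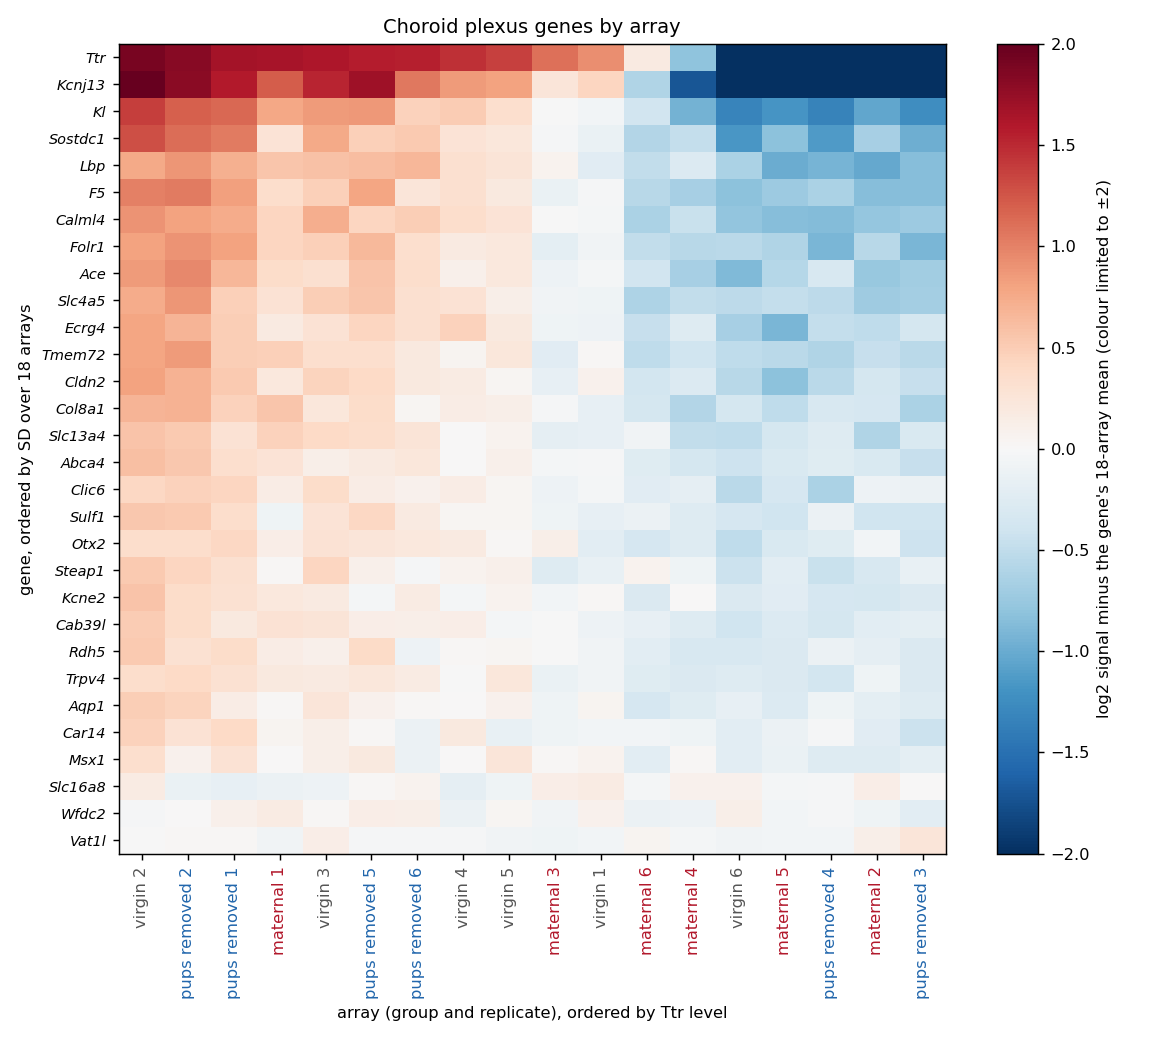
Deviation of each of 30 plexus genes (rows) from its own mean over 18 arrays, in log2 units with the colour limited to 2 in either direction, for each array (columns) ordered by its Ttr level. Nearly all rows run from high to low in the same column order, and Vat1l and Slc16a8 show almost no colour.

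Since the widest gap in Ttr set 5 low arrays apart from 13 high ones, correlations between plexus genes were not tested over all 18. The other defining genes had no such gap there, with mean deviations of -0.67 in maternal replicate 2 and -0.54 in maternal replicate 4. Their widest gap lay higher, from -0.45 in maternal replicate 6 to -0.06 in maternal replicate 3. It put maternal replicates 4 and 6 with the 5 low arrays. Within the 13 high arrays, 28 of the 29 other genes correlated positively with Ttr, with a median Pearson r of 0.84. A permutation test with 100000 resamples, two-sided and adjusted over the 29 relations, gave an adjusted p under 0.05 for 23 by Pearson r and for 25 by Spearman rho. Kcnj13 had the highest r at 0.97, with rho of 0.96. Both had a raw permutation p of 1e-05, which is the smallest that these resamples can give, and adjusted p of 3.22e-05 for r and 2.42e-05 for rho. Its r was 0.96 after the group means were subtracted. Several other genes fell further, with Kl going from 0.93 to 0.88, Folr1 from 0.88 to 0.81 and Aqp1 from 0.78 to 0.61. Sulf1 went from 0.74 to 0.53 and Kcne2 from 0.61 to 0.45. The permutations shuffled arrays across groups, so their p values also take in differences between groups.

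For Kl, r was 0.93 and rho 0.97, and for Folr1 r was 0.88 and rho 0.96, with the same permutation p as Kcnj13 in each case. Aqp1 had r of 0.78 and rho of 0.83, with adjusted permutation p of 0.00144 and 0.00107. The 6 genes past 0.05 by Pearson r were Steap1 (0.54), Car14 (0.53), Wfdc2 (0.52), Msx1 (0.46), Vat1l (0.07) and Slc16a8 (-0.30), with adjusted permutation p of 0.063 to 0.81. Without the 2 arrays farthest from the median of Ttr, maternal replicates 4 and 6, Ttr ran only from 12.87 to 13.83, and the median r over the 11 arrays left was 0.88, above 0 in 28 of 29 genes.

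**Figure D3:**
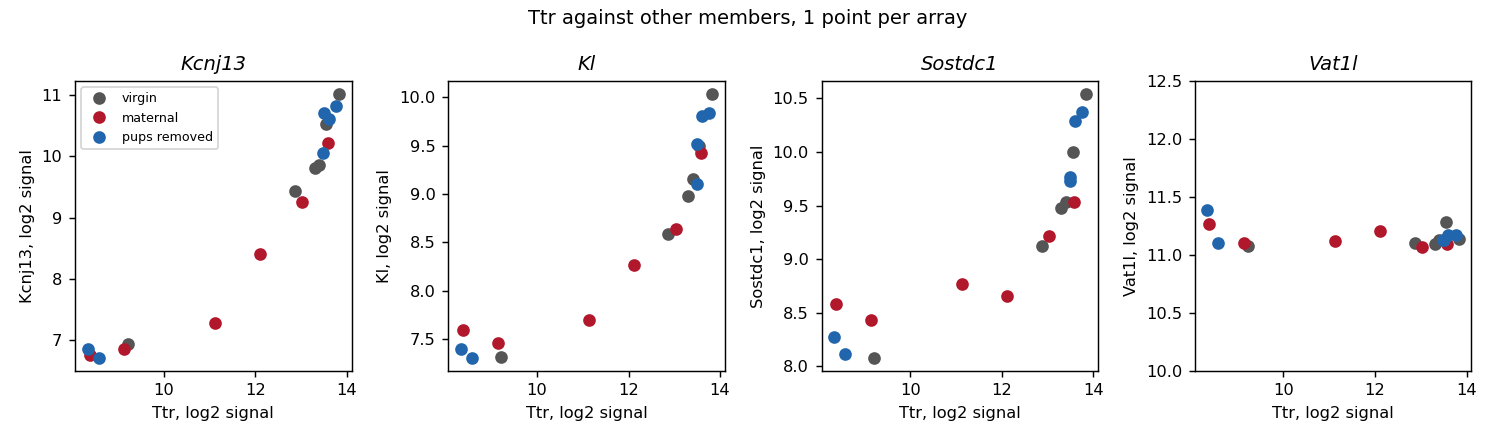
Log2 signal of Kcnj13, Kl, Sostdc1 and Vat1l (vertical axes) against that of Ttr (horizontal axes), with 1 point per array coloured by group. The first 3 genes are higher where Ttr is higher within the 13 arrays at 11.13 to 13.83 and lie low in the 5 arrays at 8.34 to 9.22, while Vat1l stays between 11.07 and 11.39.

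Among all other single-gene targets, those most like Ttr were ranked by Pearson r over the 18 arrays, as a description with no p. Of the 10 highest outside the gene set, Igfbp2, which binds insulin-like growth factors, and Slc4a2, the anion exchanger of the basal face of the plexus, were already on a second list of plexus genes. The others were Serinc2, Prelp, Kitl, Atp10d, Nt5dc2, Sorbs3, Ltc4s and Spef2. Within the 13 high arrays their r with Ttr ran from 0.64 for Prelp to 0.96 for Serinc2. The 60 targets with the highest r, members included, held 14 genes of the set. They also held Ak7, from the list of ependymal genes given below, and targets of Spef2, Dnah3, Dnah5, Dnah10 and Dnah11. An r over 0.8 across the 18 arrays was found for 97 of 21788 targets (0.445%) and for 17 of the 29 plexus genes. These points share the array, the dissection and its RNA preparation.

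The comparison of maternal with virgin mice asks what differs in the LS when females nurse. No plexus gene passed the study's threshold, an adjusted p under 0.25 in a limma fit over all targets, which 1.65% of all 35557 targets did. In both maternal comparisons the study reported more calls at this threshold than this fit gave, and the reason was not tested. At an unadjusted p under 0.05 there was 1 of 30, Aqp1, lower in maternal mice, where 10.4% of all targets were and 4.62% were lower. Aqp1 is not among the 12 defining genes, of which 0 reached that level. The maternal mean was lower for 28 of 30 genes, against 43.5% of all targets, and the median difference was -0.30 against 0.01 over all targets. The genes move together from array to array, so these 28 are not separate observations. No gene had groups that did not overlap, which 0.835% of all targets had.

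Ttr averaged 11.23 ± 2.10 in the maternal group and 12.7 ± 1.73 in the virgin group (SD, n = 6), a difference of -1.47 with a 95% interval of -3.93 to 0.99 (adjusted p = 0.698 by limma). An exact two-sided permutation test of the same 12 arrays gave p = 0.206, where the smallest p possible is 0.00216. Kcnj13 differed by -1.47 (limma SE 0.86, adjusted p = 0.573; exact permutation p = 0.11), Kl by -0.745 (SE 0.51, adjusted p = 0.642) and Sostdc1 by -0.59 (SE 0.42, adjusted p = 0.65). The intervals of all 4 run from a loss of more than 1 log2 unit to a gain, so a difference of that size could not be told from none with this spread between mice.

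F5 differed by -0.62, Slc4a5 by -0.52 and Folr1 by -0.51, with adjusted p in the limma fit of 0.547, 0.516 and 0.604. Aqp1 had the smallest adjusted p of the 30, at 0.328. Its maternal arrays ran from 7.29 to 7.66 and its virgin arrays from 7.47 to 8.13, so the groups overlap, with all 6 maternal arrays below the virgin mean. The difference was -0.31 with a 95% interval of -0.54 to -0.07. Without virgin replicate 6, the array with the lowest Ttr in its group, Aqp1 (-0.36, adjusted p = 0.183 by limma) and Ecrg4 (-0.67, adjusted p = 0.229) passed the threshold, when 4.61% of all targets did. In that fit 14 of 30 genes had an unadjusted p under 0.05 in limma, where 12.8% of all targets were, so this count went from 1 to 14 with a single array left out.

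The comparison of maternal with pups removed mice asks what contact with pups adds, and it uses the same maternal arrays. Again 0 of 30 genes passed the threshold, which 0.0309% of all targets did, and no gene had groups that did not overlap (0.529% of all targets). The maternal mean was lower for 29 of 30, against 51.9% of all targets, with a median difference of -0.33 where that of all targets was -0.0033. Ttr differed by -0.65 (95% interval -3.11 to 1.81, adjusted p = 0.901 by limma; exact permutation p = 0.639). Sulf1 (-0.38), Aqp1 (-0.245) and Ecrg4 (-0.52) had an unadjusted p under 0.05, with adjusted p in limma of 0.497, 0.544 and 0.552, where 8.96% of all targets were under 0.05 and 5.63% were so and lower. None of them is among the 12 defining genes, of which 0 were under 0.05. Kcnj13 differed by -1.16, F5 by -0.66, Kl by -0.65 and Slc4a5 by -0.52, with adjusted p of 0.721, 0.596, 0.744 and 0.594 in limma. Slc16a8 was the only gene with a higher maternal mean, by 0.065.

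Between pups removed and virgin mice, which both lacked pups, differences lay on either side of 0. The pups removed mean was lower for 18 of 30 genes, against 42.3% of all targets, and the median difference was -0.015. No gene passed the threshold (0.208% of all targets) or an unadjusted p of 0.05 in limma (8.13% of all targets), and no gene had groups apart (0.38% of all targets). Ttr differed by -0.82 (95% interval -3.28 to 1.64; exact permutation p = 0.55), and its difference was 0.20 without the 5 low arrays. Kcnj13 differed by -0.30, Kl by -0.10 and Slc4a5 by 0.

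**Figure D4:**
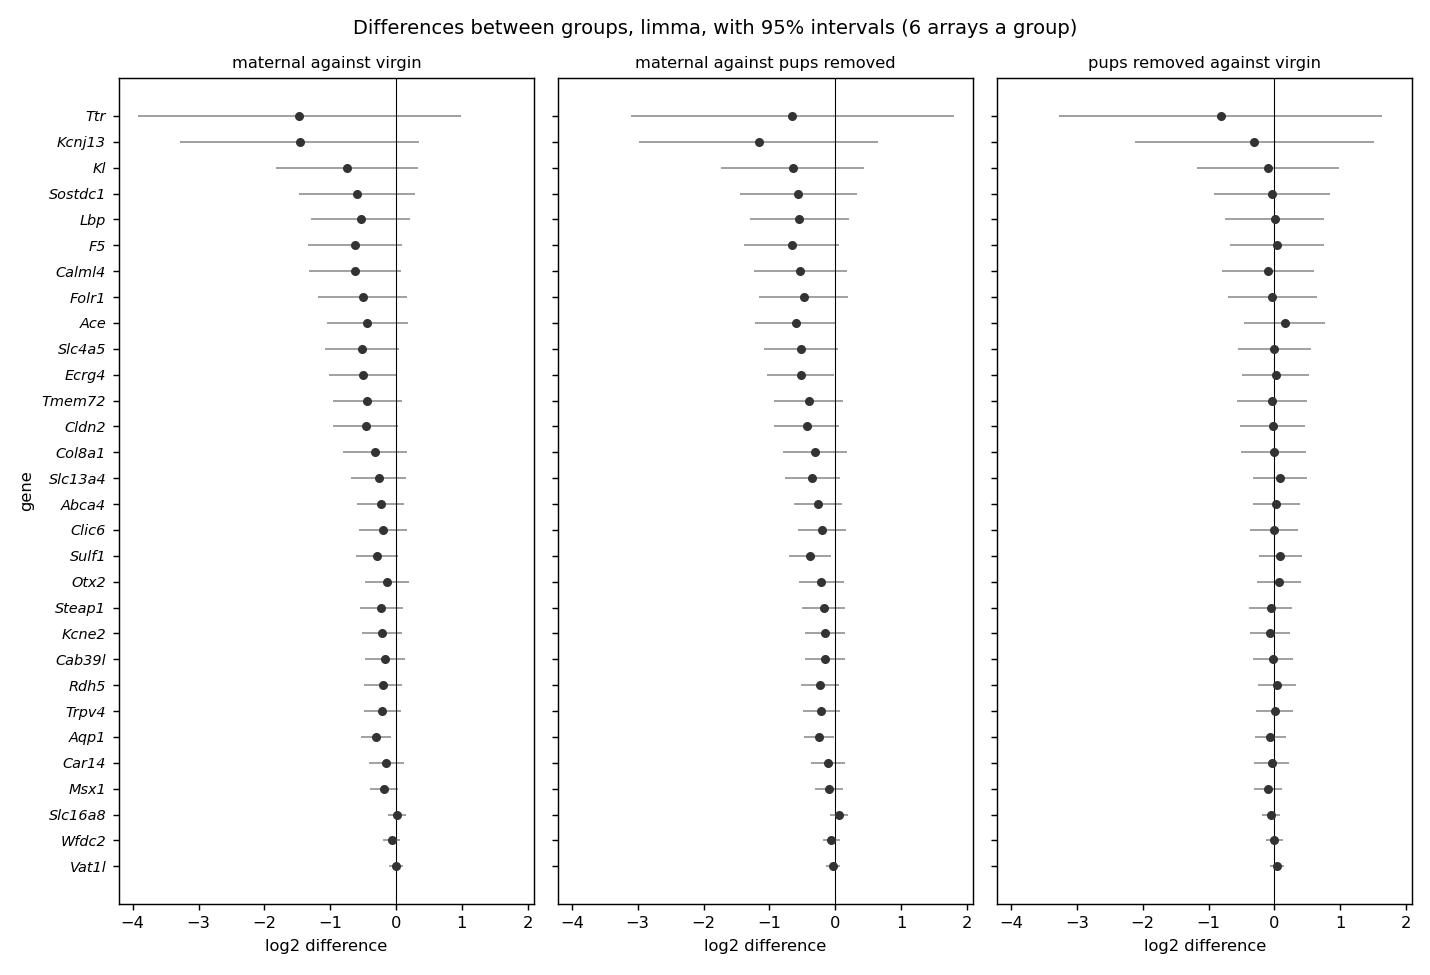
Difference in log2 signal for each of 30 plexus genes in the 3 comparisons, as points with 95% intervals from limma (6 arrays a group) and a vertical line at 0. Most points lie below 0 in both maternal comparisons and around 0 between pups removed and virgin mice, and the intervals of nearly all genes include 0.

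A second list of 24 genes known from plexus epithelium, 22 of them measured, had smaller differences of mostly the same sign. Its maternal mean was lower than the virgin mean for 21 of 22, with a median difference of -0.11, and lower than the pups removed mean for 22 of 22, with a median of -0.17, and 0 of 22 passed the threshold in either. At an unadjusted p under 0.05 in limma there were 4 of 22 and 6 of 22, all lower in maternal mice, where 4.62% and 5.63% of all targets were so and lower. The threshold was passed by 1.65% and 0.0309% of all targets. Car12, a membrane carbonic anhydrase, differed most from virgin mice, by -0.93 (SE 0.30, adjusted p = 0.285 by limma) with all 6 maternal arrays below the virgin mean. Bmp6, a bone morphogenetic protein, differed from pups removed mice by -0.405 (SE 0.12, adjusted p = 0.354). Prlr, the prolactin receptor that plexus epithelium carries, was not analysed here.

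Lists of other cell types show what else moved with these arrays. The mean of 12 ependymal genes, from the ciliated cells that line the ventricle, spanned 0.81 over the arrays, and 4 of its 5 lowest arrays were among the 5 with low Ttr. Virgin mice had a mean of 8.41 ± 0.20, maternal mice one of 8.12 ± 0.22 and pups removed mice one of 8.43 ± 0.27 (SD, n = 6), with all 12 genes lower in maternal than in virgin mice and 1 called, Pltp, a phospholipid transfer protein (-0.39, adjusted p = 0.238 in limma), where 43.5% of all targets were lower and 1.65% called. The mean of 10 genes of striatal medium spiny neurons spanned 1.16, with 3 of its 5 lowest arrays among the 5. In the same order of groups it was 10.51 ± 0.12, 10.03 ± 0.23 and 10.37 ± 0.40, with 10 of 10 genes lower in maternal than in virgin mice and 2 called, Bcl11b and Adcy5, against the same shares of all targets. At an unadjusted p under 0.05 in limma, 6 of 12 ependymal and 10 of 10 striatal genes were lower than in virgin mice (4.62% of all targets). Against pups removed mice these were 7 of 12 and 7 of 10 (5.63%). Maternal and virgin arrays did not overlap for 0 ependymal and 3 striatal genes (0.835% of all targets). The part of either list in the plexus differences was not tested.

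Lists of other cells had narrower spans. The mean of 12 meningeal fibroblast genes spanned 0.40, that of 10 endothelial genes 0.21, that of 8 astrocyte genes 0.23, that of 7 oligodendrocyte genes 0.69 and that of 2 red blood cell genes 0.575. The mean of 8 LS neuron genes spanned 0.29, with 0 of its 5 lowest arrays among the 5 with low Ttr, and the group means were 11.06 ± 0.04 for virgin, 11.05 ± 0.03 for maternal and 11.01 ± 0.10 for pups removed (SD, n = 6). The 12 defining plexus genes spanned 2.05, and all 5 of their lowest arrays were the 5 with low Ttr. The mean of the second plexus list spanned only 0.615, less than the ependymal and striatal lists, with 4 of its 5 lowest arrays among the 5. Single LS markers were less even than their mean, as Nts, which encodes neurotensin, ran from 8.29 to 9.40 and Trpc4, a cation channel, from 10.92 to 11.38.

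**Figure D5:**
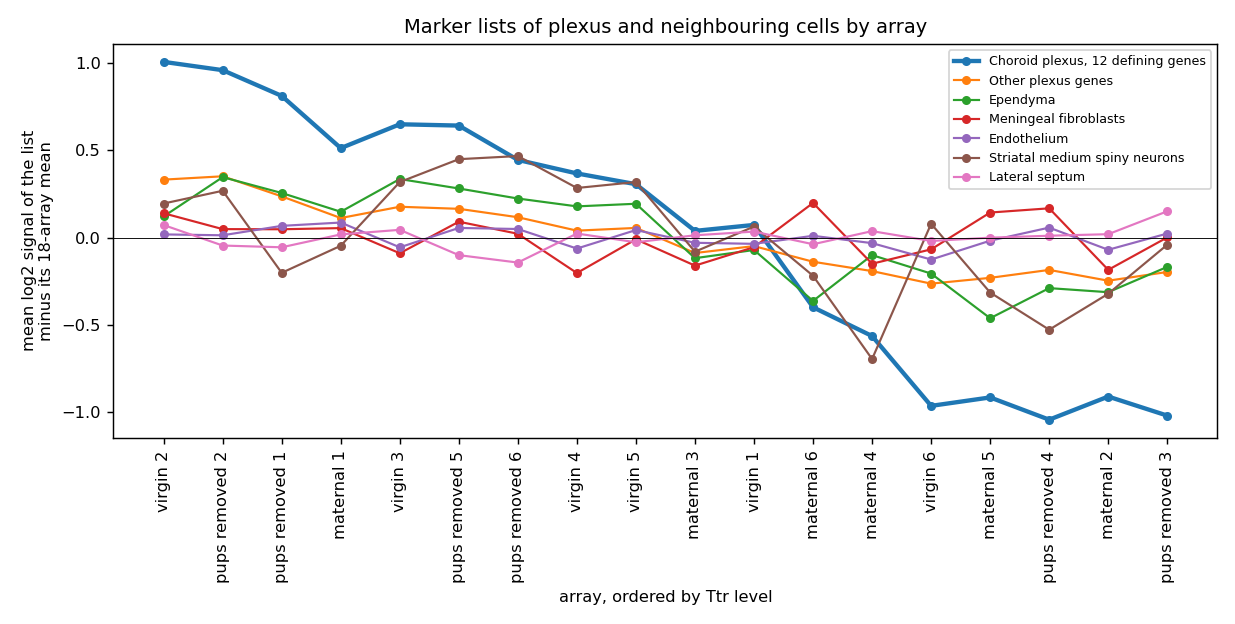
Mean log2 signal of 7 marker lists minus the mean of each list over 18 arrays (vertical axis), for each array ordered by Ttr level from high to low (horizontal axis). The 12 defining plexus genes run from 1.01 to -1.04. Ependymal and other plexus genes follow with spans of 0.81 and 0.615, striatal genes span 1.16, and the LS list stays near 0.

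The Ttr level of each array was also entered as a covariate with a straight-line effect, an alternative chosen after seeing the data. Since Ttr itself is a plexus gene, the covariate also takes away any group difference that Ttr carries. Only maternal replicates 4 and 6, at 11.13 and 12.11, had Ttr between the 5 low arrays and 12.87. Their Kcnj13 was 7.29 and 8.40, against 6.72 to 6.94 in the 5 low arrays and up to 11.01 elsewhere. A bend in the relation with Ttr and a maternal difference therefore cannot be told apart in this fit. Of the 29 other genes, 0 passed the threshold in any comparison, while the calls among all targets went from 585 to 85 (0.239%) for maternal against virgin mice, 80 of them shared, and from 11 to 159 (0.447%) for maternal against pups removed mice, all 11 shared. Between pups removed and virgin mice they went from 74 to 70 (0.197%), with 62 shared. In that comparison the median difference of the 29 genes was 0.12 with the covariate, and 3 of 29 were lower in pups removed mice, where the median of the 30 genes without it was -0.015. For maternal against pups removed mice the median difference of the 29 genes was -0.20, and 11 had an unadjusted p under 0.05, all lower in maternal mice, where 5.75% of all targets were lower at that level. The smallest adjusted p among the 29 was 0.285 in limma. On the second plexus list, Car12 (-0.72, SE 0.17) and Bmp6 (-0.35, SE 0.08) were called in this comparison, both with an adjusted p of 0.226 by limma. On the ependymal list, Pltp (-0.37, adjusted p = 0.0677 by limma) and Rsph1 (-0.34, adjusted p = 0.174) were called lower in it too. Alas2, a red blood cell gene, was called higher (0.35, adjusted p = 0.192 by limma). Against virgin mice the median of the 29 genes was -0.09 with the covariate, and 1 had an unadjusted p under 0.05, lower in maternal mice, where 3.86% of all targets were. Pltp was called lower there as well (-0.26, adjusted p = 0.243 by limma).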

How the data were processed

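The arrays measured total RNA of the microdissected LS of 18 mice, 1 array per mouse and 6 per group. The authors deposited log2 signal for 35557 targets. They had summarized probes by PLIER in Affymetrix Power Tools 1.12.0, after correcting background by GC bin. Values carry 2 decimals and were used as they stand, with array medians of 7.61 to 7.70. The platform annotation names 1 gene for 21789 targets, several for 1621 and none for 12147, and only the first were used for genes.

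A linear model over the 3 groups was fitted with limma 3.58.1 in R 4.3.3, with Benjamini-Hochberg adjustment over all targets and the study's threshold of 0.25. The fit was tested on simulated data. Permutation tests used SciPy 1.17.1. The number of arrays limits the precision, as arrays have no read depth. Members and marker lists were chosen with earlier results of these data known. The genes described are all members by role, the widest spread defining ones by array, called genes of the second plexus list, Prlr, and the 10 targets most like Ttr. Pltp, Rsph1, Alas2, Bcl11b and Adcy5, genes called on other lists, were named after their values were seen. Alternatives were other scalings, a filter on dim targets, other variance moderation, array weights, fits of 2 groups, the replicate block and leaving out each array.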

Additional observations from a re-analysis of the deposited data

Results flagged for a closer look

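Among the 90 sets of 6 arrays formed by 30 genes and 3 groups, 5 held an array whose gap to its nearest neighbour, as a share of the range of the group, was over Dixon's critical value, and chance gives about 1 in 20 such sets. Ttr in virgin replicate 6 was low, at 9.22 against 12.87 for the next array, a gap of 0.792 of the range. Tmem72 was high in maternal replicate 1, at 8.03 against 7.32 (0.696), and so was Wfdc2, at 6.74 against 6.52 (0.786). Vat1l was high in virgin replicate 3, at 11.28 against 11.14 (0.70), and in pups removed replicate 3, at 11.39 against 11.17 (0.759). Pups removed replicate 3 had the lowest Ttr of all 18 arrays, so its Vat1l level ran against most plexus genes.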

How the results depend on the processing

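Each comparison was refitted with quantile normalization, median centring, dim targets left out, intensity trend with robust moderation, array weights, the 2 groups alone and every target of a gene averaged, and no plexus gene was called in any of them. Without virgin replicate 6, 2 genes were called in maternal against virgin mice (Aqp1 and Ecrg4), when 14 of 30 had an unadjusted p under 0.05, so the count called ran from 0 to 2 over the 18 fits that each leave out an array, and Aqp1 stood at -0.36. The cause was not tested. Over these fits the median difference of the 30 genes ran from -0.37 to -0.20 for maternal against virgin, from -0.45 to -0.22 for maternal against pups removed and from -0.13 to 0.11 for pups removed against virgin mice. The Ttr differences ran from -2.16 to -0.90, from -1.36 to -0.08 and from -1.51 to -0.11. Without the 5 low arrays, an alternative chosen after seeing the data, they were -0.93, -1.13 and 0.20, with no test since Ttr chose the arrays.

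The labels number replicates 1 to 6 in each group, and the study prepared RNA in matched sets. Same-numbered arrays did not deviate together (r of -0.25 to 0.10 over 18 pairs), and an array matched its own number best in 2 of 36 cases. The labels do not say whether a number marks a matched set, and the main fit used no pairing. With the replicate block, the Ttr difference of -1.47 had an adjusted p of 0.756 in limma, 0 plexus genes were called, and calls among all targets went from 585 to 356, from 11 to 9 and from 74 to 70.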
